A study of Homo sapiens with 8 samples.

Results

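The m1A landscape of TRMT61A knockdown cells was taken from the 2 peak lists of the knockdown samples, for messenger RNA (mRNA) and for long noncoding RNA (lncRNA), and set against the input read counts of the same samples. These are 4 of the 8 libraries of the series. A member is an mRNA gene, or a lncRNA transcript, with a peak in knockdown list 1 that overlaps a peak of the same gene or transcript in knockdown list 2 by at least 1 base. The stretch covered by both lists is called a shared region. By this rule 1776 mRNA genes carried 1972 shared regions, out of 7272 genes with a peak in any of the 4 mRNA lists. For lncRNA, 626 transcripts carried 634 shared regions, out of 4817 transcripts with a peak in any list.

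The cells were 5637, an established human bladder cancer line. The knockdown group was 5637 cells in which TRMT61A was stably knocked down, with 2 replicates, each sequenced as an m1A immunoprecipitate and as input. The control group was 5637 cells labelled as wild type, with the same 2 replicates and library types. How the knockdown was made, and whether it is 1 clone, is not given in the sources used here. Nothing in the labels says that replicates were separate cultures, so a p-value here reflects the scatter of these 4 samples, whose source may be technical.

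N1-methyladenosine (m1A) is a methyl mark on adenosine that carries a positive charge and blocks Watson-Crick pairing. TRMT61A is the catalytic subunit of the TRMT6-TRMT61A enzyme, which places m1A in the T-loop of cytosolic tRNAs and, in mRNA, at sites that resemble a T-loop. In mRNA the mark has been mapped mostly to the 5' end, around the start codon. ALKBH3 and ALKBH1 can remove it, and YTHDF proteins and YTHDC1 can bind it.

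The promoter and start of genes are printed first, because most shared mRNA regions that could be placed lay near a gene's start. The next 4 genes have a shared region that covers the RefSeq start with its middle 0 to 500 bases after it, and the highest peak scores among such genes in the RefSeq promoter table, ties going to the higher fold. Regions whose middle lies just before the start, such as those of POLR3E and H2AFY, were not among the candidates. Each line runs from 100 bases before the RefSeq start to 30 bases after it (GRCh38.p14, 5' to 3' along the gene), and capitals mark the first 30 transcribed bases.
SHF: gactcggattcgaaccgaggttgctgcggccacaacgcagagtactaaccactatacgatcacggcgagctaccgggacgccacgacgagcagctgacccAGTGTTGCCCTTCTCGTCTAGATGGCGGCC
ILF2: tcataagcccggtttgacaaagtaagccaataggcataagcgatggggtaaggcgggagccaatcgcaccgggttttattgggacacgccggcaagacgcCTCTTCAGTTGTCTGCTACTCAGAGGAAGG
FBXW4: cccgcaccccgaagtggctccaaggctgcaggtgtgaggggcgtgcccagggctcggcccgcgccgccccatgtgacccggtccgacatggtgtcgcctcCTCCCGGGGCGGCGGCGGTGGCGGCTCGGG
CCDC85B: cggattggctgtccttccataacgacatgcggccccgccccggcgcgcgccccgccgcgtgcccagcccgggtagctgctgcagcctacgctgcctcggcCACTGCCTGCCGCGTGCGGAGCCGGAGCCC
SHF encodes an SH2-domain adaptor protein, and its window lies at chr15:45201087-45201216 on the minus strand. ILF2 encodes a subunit of a double-stranded RNA binding complex and lies at chr1:153670964-153671093 on the minus strand. The windows of FBXW4, a gene of the F-box family, at chr10:101695141-101695270 on the minus strand, and of CCDC85B at chr11:65890573-65890702 on the plus strand, have 77.7% and 76.2% G or C.

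Set beside them are the starts of 3 highly expressed genes with no peak in any of the 4 lists, in the same frame. EEF1A1 encodes the elongation factor that brings aminoacyl-tRNA to the ribosome, ACTG1 a cytoplasmic actin, and TPT1 a translationally controlled tumour protein.
EEF1A1: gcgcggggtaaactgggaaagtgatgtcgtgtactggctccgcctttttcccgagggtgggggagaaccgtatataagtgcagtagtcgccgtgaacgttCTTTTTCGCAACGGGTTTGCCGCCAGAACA
ACTG1: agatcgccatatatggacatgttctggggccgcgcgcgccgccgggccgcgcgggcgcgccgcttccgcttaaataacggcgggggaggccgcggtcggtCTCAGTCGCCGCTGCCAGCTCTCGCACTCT
TPT1: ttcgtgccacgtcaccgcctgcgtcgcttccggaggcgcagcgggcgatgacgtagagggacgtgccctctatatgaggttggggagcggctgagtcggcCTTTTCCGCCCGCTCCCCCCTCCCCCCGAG
EEF1A1 lies at chr6:73521003-73521132, ACTG1 at chr17:81512770-81512899 and TPT1 at chr13:45341154-45341283, all on the minus strand. In knockdown inputs EEF1A1 had 3660.4 and 3293 CPM (counts scaled to the size of the library), ACTG1 2357 and 2008 CPM, and TPT1 1935 and 1929 CPM. SHF, by contrast, had 6.58 and 9.02 CPM and a fold enrichment of 47324 and 64482 in the 2 knockdown lists. The SHF region overlaps a tRNA gene, and which RNA its reads came from was not tested. CCDC85B had 7.97 and 4.91 CPM in knockdown inputs and folds of 75.5 and 90.3. A gene listed with a shared region at its start could thus be scarce, and an abundant one could have no peak.

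The SHF window also runs into a tRNA gene, shown for its far end, 100 to 61 bases before the start, with capitals on the letters that match the T-loop search used here.
SHF far end: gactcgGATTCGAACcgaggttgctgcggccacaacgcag
This stretch lies at chr15:45201177-45201216, inside the histidine tRNA gene TRH-GTG1-9 (chr15:45201151-45201222). Its capitals are the opposite-strand spelling of GTTCNANNC and sit 27 bases outside the listed bounds of the shared region. Over the promoter windows of 250 bases before to 50 after the start, GTTCNANNC was sought on both strands. It was present in 4.9% of the 734 windows that a shared region overlaps, in 6.32% of all tested members' windows, in 7% of windows of tested genes with no knockdown peak, and in 7.47% of all 27305 promoters in the RefSeq table. A match of these letters is a description of the sequence and not a mapped site.

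Promoter windows of members were rich in G and C. The median promoter window had 70% G or C and 33 CpG pairs where a shared region overlapped it, 69% and 30 over all matched members, 63.3% and 24 in genes with no knockdown peak, and 65% and 26 over all tested genes. Promoters were matched for 1393 of 1723 tested members.

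The 2 knockdown lists held 5793 and 3686 mRNA peaks, against 6701 and 4319 in the control lists. The lncRNA lists held 2343 and 1384 peaks in knockdown, against 2588 and 1696 in control. List 1 was longer than list 2 in both groups and both RNA classes, and the groups' list sizes overlapped. Mean mRNA peak number was 0.86 times the control mean (4739.5 ± 1489.9 in knockdown and 5510 ± 1684 in control, SD, n = 2 each; two-sided exact permutation test p = 0.667, where 2 against 2 cannot go below 0.333). The lncRNA ratio was 0.87 with the same p of 0.667 by the exact permutation test. Neither difference exceeded the spread between replicates, and leaving out knockdown list 2 or control list 1 turned the ratio above 1 in both classes.

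Of the knockdown mRNA peaks, 1982 of list 1 (34.2%) and 1974 of list 2 (53.6%) overlapped the other list. In control the shares were 42.2% and 65.5%. Taken alone, list 2 named 3098 genes and list 1 4362, and for lncRNA 1348 and 2266 transcripts, so the need for both lists sets the number of members. For lncRNA they were 27.1% and 46% in knockdown and 37.9% and 57.9% in control. Peaks found in both knockdown lists had higher folds than peaks found in 1 list, with a median fold of 9.66 against 5.27 in list 1 and of 8.7 against 5.34 in list 2. Folds and scores are the authors' own values for each peak. They are used here only to describe and rank, since immunoprecipitated reads were not analysed here.

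Of the 1972 shared mRNA regions, 978 (49.6%) had the same bounds in both lists, and 1913 rested on the same transcript. The median region was 253 bases wide, and widths ran from 1 to 6053 bases. The median of the mean fold was 9.41, with a range of 2.33 to 55903, and 53.1% of regions lay under a fold of 10. Across regions the log2 fold of one list correlated with that of the other at r = 0.779 for mRNA and 0.893 for lncRNA, a description over 1972 and 634 regions that share libraries and, in part, genes. Scores reached 3100 in both lists for 95 mRNA and 79 lncRNA regions, so the score does not rank these.

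**Figure D1:**
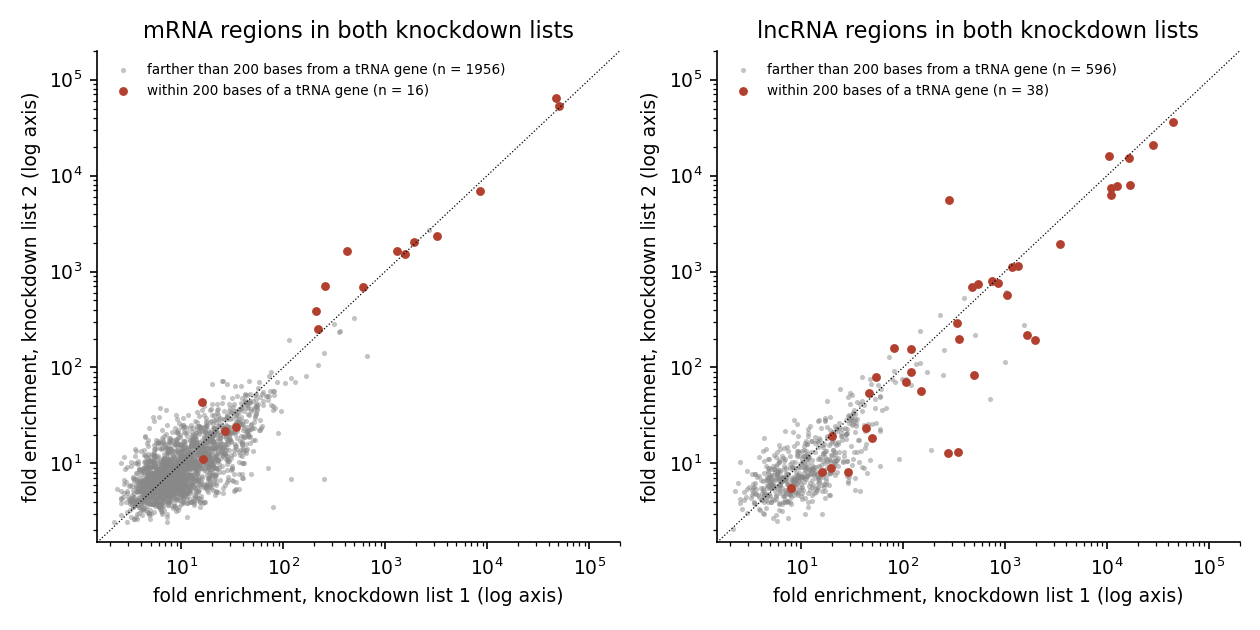
The authors' fold enrichment of each shared region in knockdown list 1 (x, log axis) and knockdown list 2 (y, log axis), for 1972 mRNA regions on the left and 634 lncRNA regions on the right. Red points lie within 200 bases of a RefSeq tRNA gene, grey points farther, and the dotted line marks equal folds. Above a mean fold of 1000, 8 of 9 mRNA points and 13 of 13 lncRNA points are red.

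Most regions with a mean fold above 1000 lay beside tRNA genes, in knockdown and in control cells. Only 16 mRNA regions were within 200 bases of a RefSeq tRNA gene and 4 overlapped one, but 8 of the 9 regions with a mean fold above 1000 were among them. The median fold of these 16 regions was 836, against 9.4 for the others. For lncRNA, 38 regions lay within 200 bases of a tRNA gene, 18 overlapped one, and 13 of the 13 regions above 1000 were among the 38, with a median fold of 449.7 near tRNA genes against 9.9 elsewhere. In control, 16 shared mRNA regions lay within 200 bases of a tRNA gene, with 7 of the 10 regions above 1000 among them. Their median fold was 803, against 9.17 for the others. For control lncRNA, 36 regions lay that near, with 12 of the 14 above 1000 among them, and medians of 366 and 10.2. At a mean fold of 100 to 1000 fewer were that near, with 4 of 15 mRNA and 15 of 30 lncRNA regions in knockdown. RefSeq records tRNA genes apart from their hosts, and whether reads at these regions came from tRNA or from the host transcript was not tested.

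SHF held the highest mean fold of any mRNA region, over the histidine tRNA gene shown above. TRIM41, an E3 ubiquitin ligase gene, followed with folds of 51113 and 52589 at chr5:181222499-181222621, 32 bases from the valine tRNA gene TRV-CAC1-5. Part of this region is also the hairpin of the microRNA MIR4638 on the opposite strand, which is shown because it is the only stretch of the TRIM41 region for which RefSeq sequence was at hand.
MIR4638 hairpin: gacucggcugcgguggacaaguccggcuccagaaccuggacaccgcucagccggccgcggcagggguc
It spans chr5:181222566-181222633 on the minus strand. Input RNA of TRIM41 was moderate, at 45.3 and 41.7 CPM in knockdown and 40.9 and 40.9 CPM in control.

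ERCC1, a nucleotide excision repair endonuclease subunit, had a region of fold 8547 and 6863 that lay 49 bases from TRU-TCA1-1, a selenocysteine tRNA gene. The middle of this region was at -27235 bases from the RefSeq start of ERCC1, so far before it. The gene is the one that the authors' lists name. ERCC1 had 2 further shared regions with mean folds of 8.66 and 7.21, which no control list held. NDUFS7, a subunit of respiratory complex I, had folds of 3203 and 2367 over TRN-GTT2-6. ALOXE3, an epidermal lipoxygenase, reached 1927 and 2011 although its input level was only 0.567 and 0.676 CPM in knockdown, against 0.944 and 0.874 CPM in control. KCTD2, a BTB-domain gene, had 2 such regions with mean folds of 1550.2 and 648, which lay 55 and 47 bases from different arginine tRNA genes. ELF1, an ETS transcription factor, had folds of 1297 and 1639, and POLR3E, a subunit of RNA polymerase III, 418 and 1631. The ELF1 region too was assigned by the authors' lists from far before the RefSeq start, at -78626 bases.

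Among the 12 mRNA regions of highest fold, ILF2 and CHD3 lay beyond the 200-base limit. ILF2 had folds of 2701 and 2728 with its region 202 bases from TRX-CAT1-1. CHD3, a chromatin remodeller of the NuRD complex, had folds of 497 and 325 at chr17:7884806-7885083, 234072 bases from the nearest tRNA gene. The next in order was MTRNR2L8, a nuclear gene that resembles mitochondrial 16S ribosomal RNA, with folds of 668 and 131. Reads at such near-identical copies may be shared with the mitochondrial gene. Its region at chr11:10507887-10509189 contains the hairpin of MIR4485, shown as the part of it with RefSeq sequence at hand.
MIR4485 hairpin: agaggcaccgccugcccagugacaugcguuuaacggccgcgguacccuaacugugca
That hairpin lies at chr11:10508270-10508326 on the minus strand. In all, 16 mRNA regions overlapped a microRNA gene, 2 a small nucleolar RNA gene and 0 a spliceosomal or ribosomal RNA gene in the RefSeq table.

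Of lncRNA transcripts, AJ003147.2 had the highest region, with folds of 44800.4 and 36463, 47 bases from the proline tRNA gene TRP-TGG3-5, and 2 more regions above 1000. AJ003147.1 followed with 28069.7 and 20861. A transcript of the FCGR2A locus reached 16333 and 15158 over TRG-GCC2-1. LINC00324 had regions of 10401 and 16153 and of 12560.4 and 7707, beside glycine and aspartate tRNA genes. AC051619.8 and AC051619.7 had 11022 and 7451, and 10836 and 6204, over TRH-GTG1-8 and TRH-GTG1-7, which lie in the same stretch of chromosome 15 as the SHF region. These transcripts were scarce in input: AC051619.7 had 2.8 and 3.87 CPM in knockdown, against 3.63 and 2.23 CPM in control, and AJ003147.1 had 0 and 0.483 CPM in knockdown, against 0 and 0.446 CPM in control. AJ003147.2 was not in the count table.

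Along genes, shared mRNA regions in knockdown gathered at the start. Of the 1595 regions on genes with a RefSeq start, 837 (52.5%) had their middle within 0 to 500 bases after it, 9.66% lay before it, 13.7% between 500 and 5000 bases and 24.2% beyond 5000 bases of genomic distance. The first 10% of the gene span held 61.3% and the last 10% 3.64%. In control, 46.1% of placed regions shared by its lists lay within 0 to 500 bases. Over single lists, however, 36.7% and 44.5% of placed knockdown peaks lay there, against 36.2% and 40.6% in control (40.6 ± 5.52% and 38.4 ± 3.11%, SD, n = 2 each; two-sided exact permutation p = 0.667, smallest possible 0.333). The groups' shares overlapped.

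**Figure D2:**
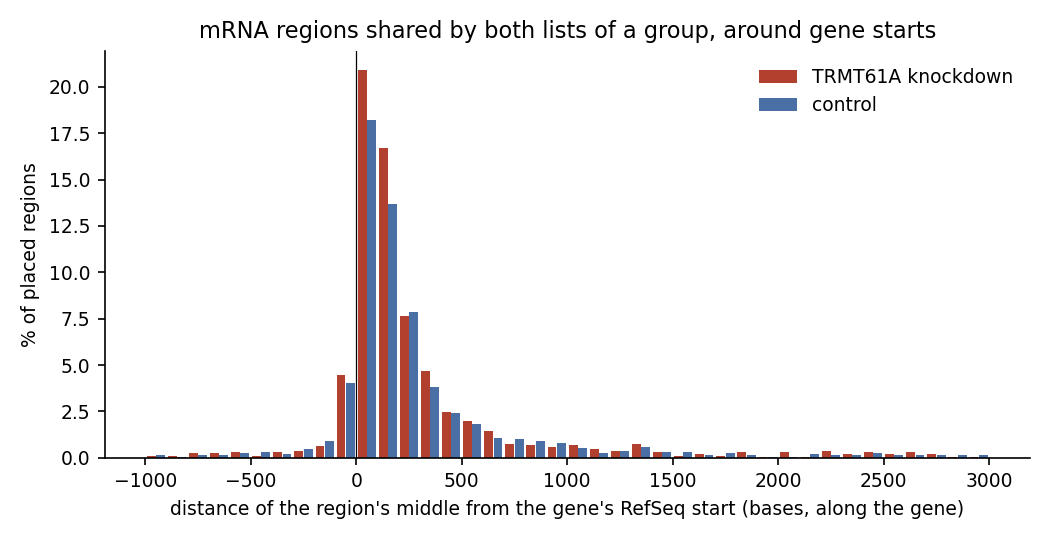
Distance from the gene's RefSeq start to the middle of each shared mRNA region (x, bases along the gene) and the percent of placed regions in each bin (y), for knockdown (red, 1595 placed regions) and control (blue, 2296). Both groups peak within 500 bases after the start, where 52.5% of knockdown and 46.1% of control regions lie.

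Regions near the start had a median fold of 10.1, those before the start 12 and those beyond 5000 bases 7.51. Examples near the start among abundant genes were CANX, an endoplasmic reticulum chaperone, 75 bases after the start with folds of 13.5 and 7.66, and SYNE2, a nuclear envelope protein, at 59 bases with 7.18 and 9.11. SLC7A5, an amino acid transporter, had its region at 320 bases with folds of 4.57 and 7.9. Tested genes with a region near the start had a median of 70.4 and 68.9 CPM in the knockdown inputs, those with a region beyond 5000 bases 55.1 and 55.8 CPM. Both values lie above the 30.2 and 29.8 CPM of all tested genes.

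Most member genes, 1626 of 1776, had 1 shared region, 118 had 2 and 25 had 3. Among genes with more, MYH9, a nonmuscle myosin heavy chain, had 6, which lay 87013 to 102742 bases downstream of its start, and PCNT, a centrosome scaffold protein, had 5. RRBP1, CEP131, HOOK2 and MYH14 had 4 each. MYH14, another nonmuscle myosin, had 27.1 and 56.8 CPM in knockdown, against 18.8 and 30.2 CPM in control. Several regions on 1 gene are not independent of one another.

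Members had higher input levels than genes without a peak, as a description over genes. Among 13362 mRNA genes with enough input reads to be tested, 1723 (12.9%) were members, 3331 had a knockdown peak that the lists did not share, and 8308 had no knockdown peak. The median member had 61 and 60.4 CPM in the 2 knockdown inputs, a gene with an unshared peak 32.1 and 32.2 CPM, and a gene with no peak 23 and 23 CPM. The ranges were wide, and the interquartile range of members, 26.9 to 133 CPM in knockdown input 1, overlapped that of genes with no peak, 3.74 to 71 CPM. Of the 1776 member genes, 1756 were in the count table and 20 were not. With no filter on low counts, the median over both knockdown inputs was 10.5 CPM for genes with no peak, against 23 CPM with the filter, while that of members was 59.4 CPM, against 60.3 CPM.

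The share of members climbed with expression. Tested genes were ranked by mean knockdown CPM into 10 classes of near-equal size. In the lowest class 2.09% of genes were members, in class 5 11.4%, in class 7 18% and in the highest 23.6%, while class 8, at 16.7%, lay below class 7. Genes with an unshared peak followed another course, at 10.5% in the lowest class, 31.7% in class 5 and 20% in the highest. These are descriptions over genes, with no test, and CPM here is not per length because no transcript lengths were at hand for mRNA. Genes also differed in span, with a RefSeq median of 40.8 kb for members, 37.3 kb for genes with an unshared peak and 28.2 kb for genes with none. The part of length in the expression difference was not tested.

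**Figure D3:**
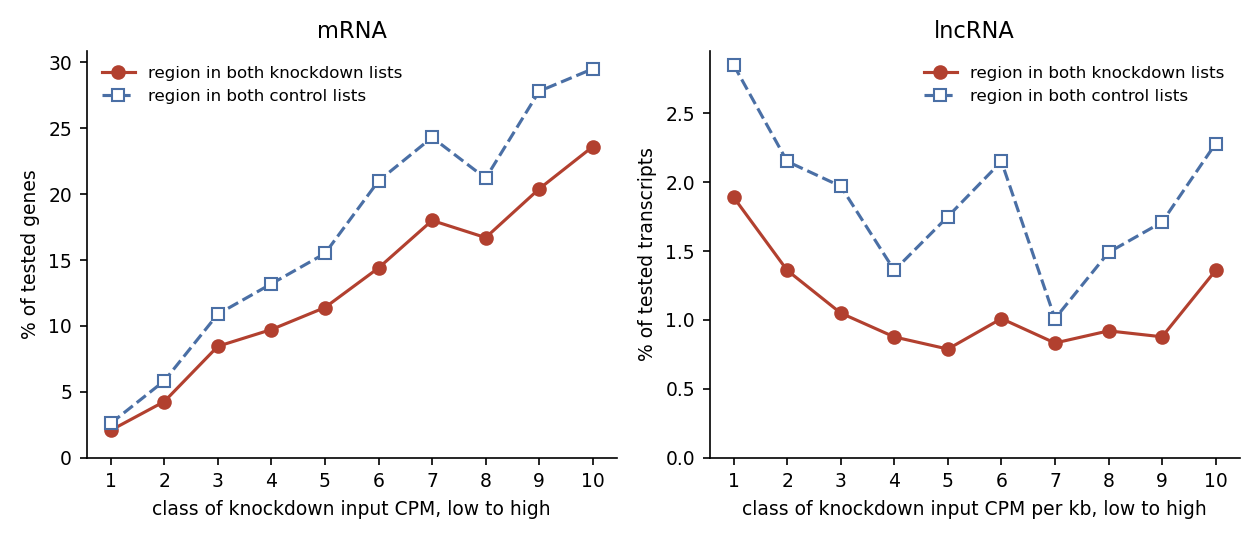
Percent of tested mRNA genes (left) or lncRNA transcripts (right) with a region in both lists of a group (y), by class of knockdown input level from 1 (low) to 10 (high) (x), with knockdown as red points and control as open blue squares. For mRNA the knockdown share is 2.09% in the lowest and 23.6% in the highest class, while for lncRNA it stays between 0.789% and 1.89%. Level is CPM for mRNA and CPM per kb for lncRNA, so the panels use unlike measures.

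The most abundant members were ITGA6, an integrin alpha subunit, with 1587 and 1482 CPM in knockdown and 1407 and 1256 CPM in control, and FLNA, an actin crosslinker, with 1505 and 1533 CPM in knockdown and 1467 and 1793 CPM in control. SLC7A5, CANX, AHNAK, DYNC1H1, SYNE2 and HUWE1 followed, with mean knockdown levels of 1329 to 1187 CPM. Folds at these genes were modest: FLNA had 9.55 and 7.41 and HUWE1, a ubiquitin ligase, 4.31 and 4.63.

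Several genes had far more input RNA and no knockdown peak. MT-CO1, a mitochondrially encoded subunit of cytochrome c oxidase, had 7964 and 7539 CPM in knockdown and 9625 and 8188 CPM in control. HSP90AA1, a cytosolic chaperone, had 4261 and 3875 CPM in knockdown and 4204 and 4376 CPM in control. ACTB, the cytoplasmic beta actin, had 2588 and 2471 CPM in knockdown and 2592 and 2858 CPM in control. HSP90AA1 and ALDH1A3, a retinaldehyde dehydrogenase, had a control peak, whereas MT-CO1, EEF1A1, MT-ND4, MT-ND1, ACTB and MT-CO3 had none in any list. The lists held 0 peaks on mitochondrially encoded mRNAs, and whether that chromosome was searched is not given in the sources used here.

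Gene families differed in the share of tested genes that were members. Each share is read against 12.9% over all tested genes and against the share that the same number of genes would have if each had the share of its expression class. The families were chosen with results of these data known, and the shares carry no test. A family is a set of gene symbols, so it can hold regulators named after the family beside its true members.

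Of cytosolic ribosomal protein genes, 0 of 85 were members and 0 had any knockdown peak, although their median level was 259 CPM and the share of their expression classes was 20.4%. RPL32, a large-subunit protein, had 1483 and 1285 CPM in knockdown, against 1552 and 1517 CPM in control, and no peak. The control lists likewise shared 0 regions on these genes. Their median RefSeq span was 5.01 kb. Histone genes, with a median span of 0.502 kb, had 3 members of 66 (4.55%, against 16% of its expression classes). The 3 were H2AFY, which encodes the variant macroH2A, H2AFV, a variant of H2A.Z, and H2BFS, while H3F3B at 977 and 998 CPM in knockdown and 964 and 959 CPM in control had no knockdown peak. Mitochondrial ribosomal protein genes had 4 of 77 (5.19%, against 13.2%) and nuclear OXPHOS subunits 7 of 77 (9.09%, against 14.2%), among them NDUFA8 and UQCRH.

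Other families below the background were ZNF zinc finger genes, at 31 of 451 (6.87%, against 11.6% of its expression classes), TMEM genes at 11 of 186 (5.91%, against 10.9%) and solute carriers at 24 of 248 (9.68%, against 11.7%). HOX genes had 2 of 34 (5.88%, against 8.29%) and interferon-stimulated genes 1 of 27 (3.7%, against 8.85%), so their expression classes were low in members too. ZNF704 was the exception in fold among zinc finger genes, with a mean of 196, followed by ZNF354B with 162. Keratins, the intermediate filaments of epithelia, had 2 of 19 (10.5%, against 13%), KRT80 and KRT13. KRT19 with 1059 and 1049 CPM in knockdown and 1016 and 1144 CPM in control had no knockdown peak. Kinesins, motors along microtubules, had 2 of 31 members in knockdown (6.45%, against 16.9% of its expression classes), KIF21B and KIF7, and 12 of 31 in control. A further 16 kinesin genes had a knockdown peak that its lists did not share. The kinesin share rested on single lists, being 54.8% in list 1 alone, above the 30.9% of all tested genes there, and 16.1% in list 2 alone, below the 22.3% of all.

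Chromatin regulators had the highest share, with 20 members of 69 (29%, against 17.8% of its expression classes), and their median span was 75 kb. Members included KDM1A, a histone demethylase, with 607 and 640.3 CPM in knockdown and 590.2 and 602 CPM in control and a mean fold of 11.3. CHD4, the remodelling ATPase of NuRD, ARID1B, SMARCA4, SMARCC1 and SMARCC2 of SWI/SNF, and the deacetylase HDAC1 were also members. ARID1B had a mean fold of 31.8, and CHD3, described above, had the highest of the family, 411. CHD8, KMT2A and SMARCA5 had no knockdown peak. In control, 33 of the 69 (47.8%) had a region in both lists, against 17.2% over all tested genes.

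Cyclins, CDKs and CDC genes had 14 members of 64 (21.9%, against 16%), among them CDK6, a G1 kinase, with 574 and 459 CPM in knockdown and 517 and 479 CPM in control, and CDC6, a replication licensing factor. None of the 14 was a cyclin. The count includes CDC42BPB, CDC42BPG, CDC42SE2, CDC37 and CDK2AP1, which were taken in by symbol alone. CDK11A and CDK11B are near-identical copies, so their regions, 3 each, may not be separate. Collagens, laminins and integrins had 12 of 56 (21.4%, against 13.6%), including ITGA6, LAMC1, ITGB4, COL4A1 and COL4A2. Ubiquitin-specific proteases had 10 of 47 (21.3%, against 16.8%), with USP9X, USP47 and USP7 the most abundant. Genes with RAB symbols, most of them GTPases of vesicle traffic, had 12 of 68 (17.6%, against 12.4%), a count that includes RAB3IL1 and RAB11FIP3, regulators of RAB proteins. Immediate early genes had 4 of 20 (20%, against 11.6%), namely FOSL2, FOSL1, JUND and EGR3. EGR3 had only 0.155 and 0.416 CPM in knockdown. In control, 2 of the 20 (10%) had a region in both lists, below the 17.2% of all tested genes.

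**Figure D4:**
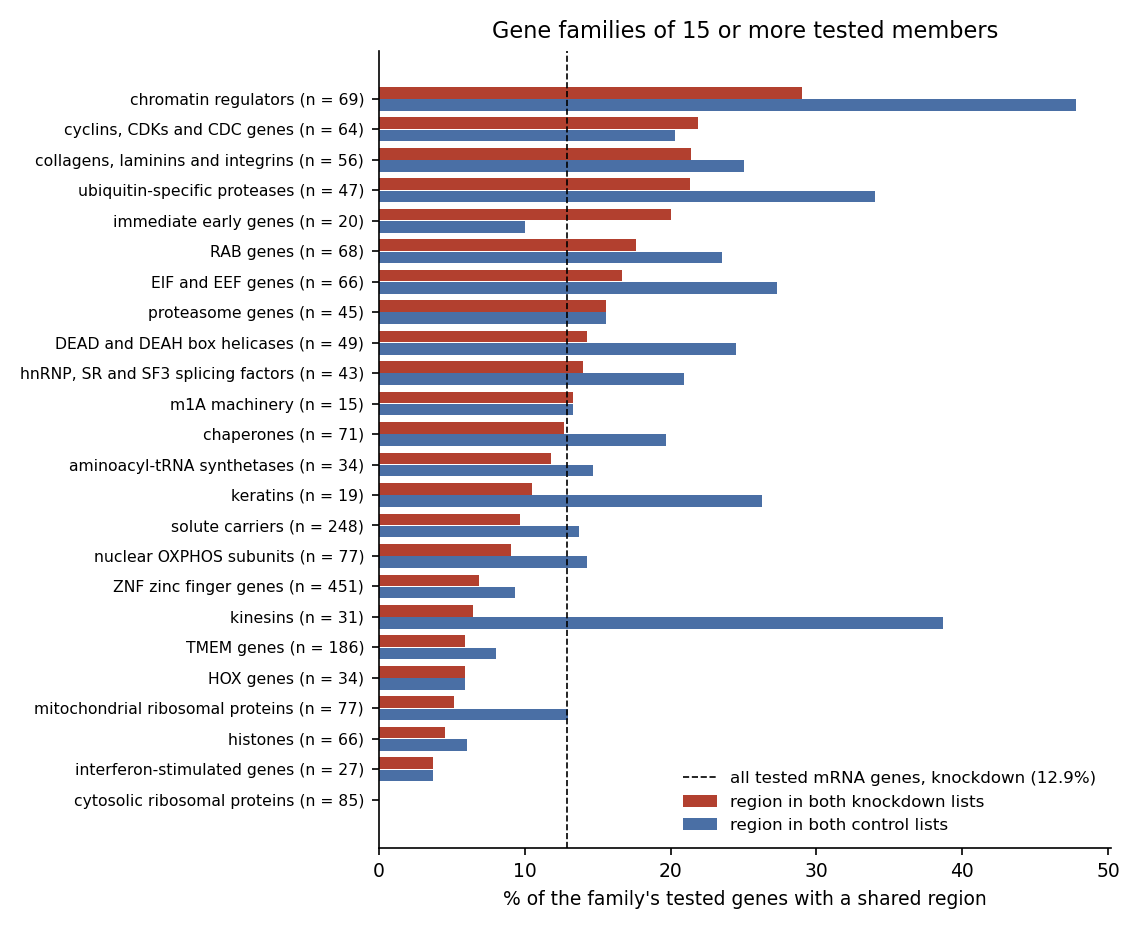
Percent of tested genes with a shared region (x) for each gene family of 15 or more tested genes (y, with its number), in knockdown (red) and control (blue). The dashed line is the 12.9% of all tested mRNA genes in knockdown; chromatin regulators reach 29% and cytosolic ribosomal proteins 0%.

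Some families lay near or above 12.9% but below the share of their expression classes. Genes with EIF and EEF symbols had 11 of 66 (16.7%, against 17.7%), of which EIF2AK1 and EIF2AK4 are kinases of eIF2, and EIF4EBP1 and EIF4EBP2 repressors of eIF4E. Proteasome genes had 7 of 45 (15.6%, against 17.7%), DEAD and DEAH box helicases 7 of 49 (14.3%, against 16.8%), hnRNP, SR and SF3 splicing factors 6 of 43 (14%, against 21.2%) and chaperones 9 of 71 (12.7%, against 15.8%). EIF3A, the largest eIF3 subunit, had 3 shared regions, and EIF3B had 1 with a mean fold of 20.7. Aminoacyl-tRNA synthetases had 4 of 34 (11.8%, against 16.8%).

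Of 15 genes that write, erase or bind m1A, 2 were members (13.3%). This is near the 12.9% of all tested genes and the 14.9% of their expression classes. YTHDF3, a cytoplasmic reader, had folds of 11 and 10.3 and 212 and 210.4 CPM in knockdown, against 233 and 215 CPM in control. YTHDC1, a nuclear reader, had folds of 4.08 and 3.33 and 9.83 and 4.37 CPM in knockdown, against 3.17 and 10.6 CPM in control. Its list 2 score was 59.8, near the lowest score of 50 in the lists. TRMT6, TRMT61B, TRMT10C, ALKBH1, ALKBH3, YTHDF1 and YTHDF2 had no knockdown peak. TRMT61A itself had a peak in 1 knockdown list and none in control.

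TRMT61A input RNA was 13.4 and 6.71 CPM in knockdown and 19.8 and 14.7 CPM in control. Both knockdown values lie below both control values. The log2 fold change was -0.78 ± 0.29 (SE), with an unadjusted p of 0.0278 and an adjusted p of 1.00 by edgeR's quasi-likelihood test. The value rested on single libraries: it was -1.36 (adjusted p = 0.00142) without knockdown replicate 1 and -0.36 (adjusted p = 1.00) without knockdown replicate 2. The other 14 genes of the list all had adjusted p-values of 1.00 as well.

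Shared regions in lncRNA did not rise with input level per kb of transcript, a measure unlike the CPM used for mRNA. Of 22803 tested transcripts, 250 (1.1%) were members. Their median was 14.7 and 13.9 CPM per kb of transcript in the knockdown inputs, against 16.4 and 16.4 CPM per kb for 21665 transcripts with no knockdown peak. In CPM not divided by length the order turned, with medians of 15.9 and 15 CPM for members, against 14 and 14 CPM. Members had a median length of 1186 bases, against 763 bases for transcripts with no knockdown peak. Over 10 classes of CPM per kb the member share was 1.89% in the lowest and 1.36% in the highest, with 0.789% as its lowest value, in class 5. In control, 1.87% of tested transcripts had a region in both lists. Of the 626 members, 446 were in the count table and 180 were not, so the tested members are less than the whole set.

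By position relative to protein-coding genes, as the authors' table gives it, intergenic lncRNA had 71 members of 2627 tested (2.7%), intronic antisense 13 of 488 (2.66%) and natural antisense 19 of 871 (2.18%). Exon sense-overlapping transcripts, which share sequence with a coding gene, had 130 of 16640 (0.781%), and bidirectional ones 1 of 404. Transcripts of signal recognition particle RNA type (RN7SL) had 4 of 111 and small nucleolar RNA host genes (SNHG) 2 of 34.

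RN7SL2, an RNA of the signal recognition particle, was the most abundant member with 73088 and 49589.9 CPM in knockdown and 81066 and 71704 CPM in control, and folds of only 2.76 and 5.09. RN7SL3 had 7709 and 4289 CPM in knockdown and 6765 and 6149 CPM in control, with folds of 11 and 16.3. These copies are nearly identical, so their reads could be split between them. RPS2P5, a ribosomal protein pseudogene, and a transcript of the RBM25 locus were also among the most abundant members. By position, 0 of 634 shared lncRNA regions overlapped a shared mRNA region. In the full knockdown lists, 0 of 2343 and 0 of 1384 lncRNA peaks overlapped an mRNA peak. Whether each peak was assigned to only 1 RNA class is not given in the sources used here, so the 0 is not read as a result. The effect of such an assignment on the share of exon sense-overlapping transcripts was not tested.

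Most regions of knockdown cells were also listed in control cells. Of the 1972 mRNA regions, 1311 (66.5%) overlapped a peak of the same gene in both control lists, 383 (19.4%) in 1 and 278 (14.1%) in neither. For lncRNA the numbers were 396 (62.5%), 134 and 104 (16.4%). The share in both control lists was 41.4% for mRNA regions with a mean fold under 5, 54.8% at 5 to 10 and 82.1% at 10 to 100, and all 24 regions above 100 were in both. For lncRNA the same shares were 31.7%, 49.8% and 75.8%, and above 100 they were 93.3% and then 84.6% above 1000. The reverse shares were lower. Of 2823 mRNA regions shared by the control lists, 46.5% overlapped a peak in both knockdown lists and 706 (25%) in neither. For 979 control lncRNA regions these shares were 40.4% and 30.4%.

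Of 1723 tested members, 135 had no peak of that gene in either control list. VPS53, a tethering protein of the Golgi, had folds of 43.2 and 43 and input RNA of 91.1 and 90.9 CPM in knockdown and 86.6 and 90.5 CPM in control. CTSZ, a lysosomal cathepsin, had folds of 27.4 and 25.2, and PLXNA3, a semaphorin receptor, 48.8 and 22.8. PAF1, NELFCD, MKI67, SLC27A4 and C8orf37 completed the 8 of highest mean score. C8orf37 ranked there by list 1 alone, with scores of 3100 and 50.7 and folds of 78.7 and 3.54. MKI67, the proliferation marker, had 712 and 649 CPM in knockdown and 799 and 750.1 CPM in control, with folds of 14.6 and 8.94. These were picked for their absence from control lists, and a missing peak is not a measured loss of the mark, since list sizes differed as much between replicates as between groups.

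Few members passed the test of input RNA between knockdown and control. By edgeR's quasi-likelihood test over all 13362 mRNA genes, 2 members passed an adjusted p of 0.05, 1 higher and 1 lower, against 5 genes in all (0.0374% called, with 0.00748% higher and 0.0299% lower). At an unadjusted p under 0.05, 52 of 1723 members (3.02%) were counted, beside 3.3% of all tested genes. The median log2 fold change was -0.010 over members and -0.001 over all tested genes, and 781 members lay above 0 and 942 below. The count of members called rested on single libraries: it was 24 without knockdown replicate 1, 4 without knockdown replicate 2 and 4 without control replicate 1.

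LY6E, a GPI-anchored surface protein, had 27.8 and 20.6 CPM in knockdown and 2.46 and 1.49 CPM in control. Every knockdown value lies above every control value. LY6E rose, with a log2 difference of 3.64 ± 0.26 (SE), and the edgeR quasi-likelihood test gave an adjusted p of 0.00212. Its shared region, at chr8:143018482-143018586, had folds of 6.01 and 3.6. LY6E had no control peak, but its control inputs held only 73 and 63 reads, against 1079 and 793 in knockdown. Whether a peak could be called at the control level was not tested. TJP1, the tight junction protein ZO-1, had 16.7 and 16.2 CPM in knockdown and 31.5 and 33 CPM in control. Its groups do not overlap either, and TJP1 fell, with a log2 difference of -0.97 ± 0.11 (SE). The edgeR quasi-likelihood test gave an adjusted p of 0.0414. Genes named for a small p tend to have groups that do not overlap, so the lack of overlap adds no support. The TJP1 region, at chr15:29822002-29822503, had folds of 11.2 and 5.87 and was listed in control too. In list 2 the scores of the LY6E and TJP1 regions were 61.4 and 83.8. At a score of at least 100, neither gene would thus be a member. Leaving out control replicate 2, or limma-voom in place of edgeR, ended the TJP1 call, with an adjusted p of up to 0.146.

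The next members by p did not pass this test. PUF60, a splicing factor, had 3.82 and 2.65 CPM in knockdown and 12.5 and 30.1 CPM in control. Its log2 fold change was -2.73 ± 0.39 (SE), and the p adjusted over all genes by edgeR was 0.137. The groups do not overlap, but the control replicates differ widely. PUF60 passed in 6 of 10 other settings, with DESeq2 among them (adjusted p = 0.0238), and its log2 fold change lay between -3.22 without control replicate 1 and -1.96 without control replicate 2, with adjusted p-values up to 0.9 (limma-voom). AHR, the aryl hydrocarbon receptor, had 181 and 216 CPM in knockdown and 151 and 136 CPM in control. KLF5, a transcription factor of epithelia, had 702 and 767 CPM in knockdown and 552 and 589 CPM in control. Both had an edgeR adjusted p of 0.777, and both passed with DESeq2 (adjusted p = 0.0101 for AHR and 0.0104 for KLF5) and without knockdown replicate 1 (adjusted p = 0.00107 for AHR and 0.00879 for KLF5). TRIB3, ABCA5 and STC2 had adjusted p-values of 1.00 by the same test, with log2 fold changes of -0.58 ± 0.13, 0.50 ± 0.13 and -0.42 ± 0.11. Each of these 3 passed in 1 of 10 other settings, without knockdown replicate 1.

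**Figure D5:**
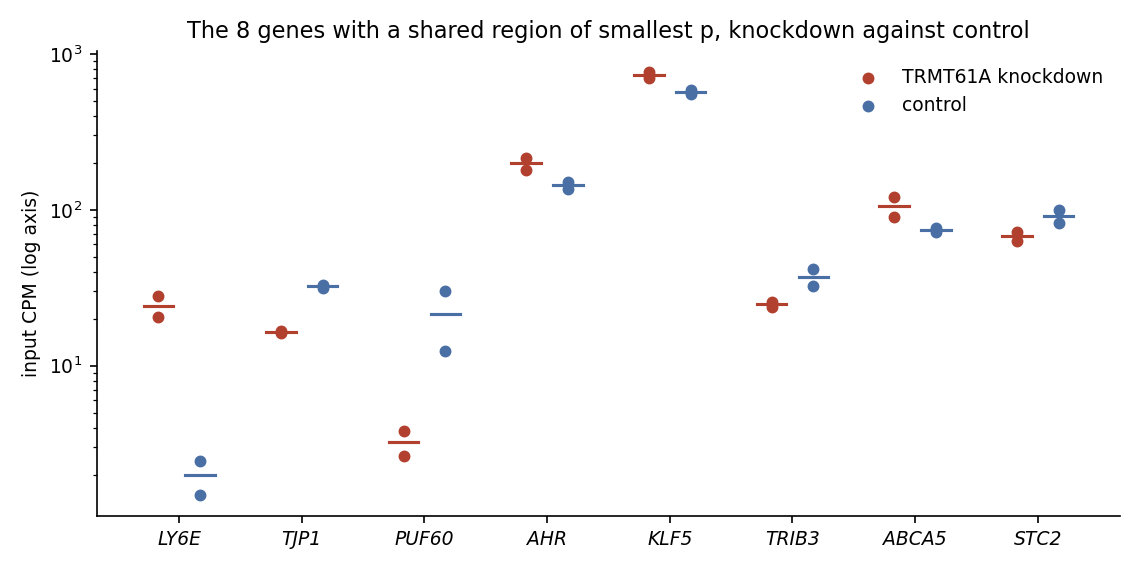
Input CPM (y, log axis) of the 8 members with the smallest p in knockdown (red) and control (blue), with a point per replicate and a line at the mean of 2. LY6E lies higher and TJP1 lower in knockdown with adjusted p under 0.05; the other 6 did not pass.

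Among 250 tested lncRNA members, 0 passed by edgeR's quasi-likelihood test, beside 5 of 22803 transcripts (0.0219%, with 0.00439% higher and 0.0175% lower), and 14 members (5.6%) had an unadjusted p under 0.05, beside 4.55% of all. DESeq2 called 0 members and limma-voom 1, and edgeR called 2 without knockdown replicate 1 and 1 without control replicate 2. The smallest p belonged to RN7SL2, with the levels given above and a log2 difference of -0.32 ± 0.10 (SE), and the edgeR quasi-likelihood test gave an adjusted p of 1.00. RN7SL2 is the transcript that limma-voom called (adjusted p = 0.00661), and it passed in 5 of 10 other settings. Its log2 difference was -0.63 without knockdown replicate 1 and -0.06 without knockdown replicate 2. PPP4R3B, a transcript of a phosphatase subunit locus, had 188 and 194 CPM in knockdown and 126 and 140.1 CPM in control, and TMEM202-AS1 had 17.7 and 10.6 CPM in knockdown and 29 and 30.8 CPM in control. In both the groups do not overlap, which is likely for transcripts picked by small p, and in both the edgeR adjusted p was 1.00.

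Input totals ranged from 37912238 to 38989448 mRNA counts in knockdown and from 30046283 to 42177927 in control. For lncRNA they ranged from 2119359 to 2217562 in knockdown and from 1727826 to 2304288 in control. The 10 epithelial and urothelial marker genes summed to 4585 and 4747 CPM in knockdown and 4357 and 5038 CPM in control. The 6 immune markers summed to 1.55 and 0.754 CPM in knockdown, where CD68 was at 0, and to 1.15 and 1.02 CPM in control. The 4 endothelial markers lay between 1.5 and 2.62 CPM in the 4 inputs, and the 6 fibroblast markers between 30.2 and 45.1 CPM, most of it COL1A1. UPK2, a urothelial terminal differentiation marker, was at 0.103 and 0.182 CPM in knockdown and 0.169 and 0.402 CPM in control.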

How the data were processed

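Per the labels' protocols, total RNA was depleted of ribosomal RNA, immunoprecipitated for m1A with a commercial kit, and sequenced beside its input. The submitters' processing notes name build hg38, HISAT2 2.0.4, HTSeq 0.9.1, STAR and edgeR. What each tool did, whether counting used strand, and which peak caller version ran is not given in the sources used here. Deposited tables hold, per the file headers, raw counts of reads in the 4 inputs by gene (mRNA) and by transcript (lncRNA). The 8 columns of normalized values were not used. The authors also deposited 1 peak list per sample and RNA class, called per sample, with a fold enrichment, a linear ratio, and a score of 10 times the negative log10 of p. The lowest fold in any list was 2 and the lowest score 50.

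Shared regions were merged from peaks of both lists that overlap by at least 1 base. Counts were tested with edgeR 4.0.16 (quasi-likelihood, TMM, filterByExpr with a minimum count of 10, Benjamini-Hochberg at 0.05) over all features of a class, and the fit was tested on simulated data. CPM are counts divided by the TMM-scaled library size, per 1000000. SE is the absolute log2 fold change over the square root of F. Alternatives used DESeq2 1.42.0 and limma 3.58.1. RefSeq tables (GRCh38.p14) gave starts, tRNA genes and sequences. The members, families and tests were chosen with earlier results of these data known. Genes are named by rank of fold, number of regions, CPM or p, or as the 3 most abundant of a family; other family members, MTRNR2L8, ACTG1 and TPT1 were named after their values were seen. Over features, the difference in log2 input CPM between knockdown replicates correlated with that between control replicates at 0.0475 for mRNA and 0.022 for lncRNA, so input samples were not taken as paired by number. Peak lists 1 were longer than lists 2 in both groups. Some items that the naming rule would include are not reported here.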

Additional observations from a re-analysis of the deposited data

How the results depend on the processing

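Members were rebuilt in other ways. A reciprocal overlap of 0.5 gave 1636 mRNA genes and 570 lncRNA transcripts, a score of at least 100 gave 1333 and 451, and the same gene or transcript in both lists wherever gave 2114 and 664, all within 1.5 times of 1776 and 626. Without regions near tRNA genes, an alternative chosen after seeing the data, 1763 and 594 were left. A single list gave 3098 to 4362 mRNA genes and 1348 to 2266 lncRNA transcripts. Median knockdown CPM of members was 60.3 and of genes with no peak 23; the median was 59.4 and 10.5 with no filter, 61.4 and 31.2 at a mean of at least 1 CPM, and 67.4 and 24 at a score of at least 100. For members it was 63.2 with a reciprocal overlap of 0.5, for genes with no peak 23.6 at a mean count of at least 10, and with a single list 43 to 49.4 and 24.3 to 24.6. Members stayed above genes with no peak in each of these settings. Of 156 family shares under other member rules, 132 lay within the exact binomial interval of the share reported. These intervals are wide for small families and the rules reuse the same peaks, so the count says little about firmness. The share of all tested genes itself ran from 9.69% at a score of at least 100 to 30.9% with list 1 alone. The RAB, chromatin regulator, cyclin and CDK, integrin, USP, immediate early, and EIF and EEF families lay above the share of all tested genes under all 7 rules, and ribosomal proteins at 0 or below it.

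Counts of changed mRNA genes were 24 with DESeq2, 3 with limma-voom, 14 with no filter and 15 with the replicate block, against 5, and 11 to 135 without a library. For members they were 5 with DESeq2, 1 with limma-voom and 5 with the replicate block, against 2, and 2 to 24 without a library. Changed lncRNA transcripts numbered 24 with no filter and 22 with the replicate block, against 5, and 18 to 32 without a library. Changed lncRNA members numbered 1 with limma-voom, 1 with no filter and 1 with the replicate block, against 0, and 0 to 2 without a library. Leaving out a library leaves its group with 1 sample, assumed to vary like the other group. The cause of these shifts was not tested. LY6E passed in 10 of 10 settings and TJP1 in 8 of 10. The ratio of mRNA peak numbers was 0.864 and 0.853 within replicate numbers (replicate block) and 0.669 to 1.1 without 1 list, turning to 1.05 and 1.1; that of lncRNA was 0.905 and 0.816 within replicate numbers and 0.646 to 1.1, turning to 1.09 and 1.1. Depth limits what 2 replicates and unseen immunoprecipitated counts can show: a peak that is not listed is not shown to be absent.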
